A study of Homo sapiens with 18 samples.

Results

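The 10 genes of heme and iron handling described here were followed in HEK293A cells exposed to cadmium or zinc, in wild type and in cells labelled as double knockouts of the Hippo kinases LATS1 and LATS2. They were taken by name: HMOX1, HMOX2, BLVRA and BLVRB of heme breakdown, FTH1 and FTL of iron storage, SLC40A1 of iron export, TFRC of iron uptake, and FECH and ALAS1 of heme synthesis. They make up 10 of the 58336 gene IDs in the count table, and all 10 passed the filter on low counts, which left 19393 genes. Cadmium and zinc moved HMOX1 most among them, to 709 and 246 reads per 1000000 (CPM) in knockout cells against 6.15 CPM in water, and to 1219 and 464 CPM in wild-type cells against 7.56 CPM in water. SLC40A1 fell in both metals, FTL and FTH1 rose in both, and FECH fell in zinc but rose in cadmium.

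HEK293A is a human embryonic kidney cell line that grows attached. Polyadenylated RNA was sequenced from 6 groups of 3 libraries, all after 4 h: LATS1/2-DKO cells in 50 uM CdCl2, in 250 uM ZnCl2 or in H2O, and wildtype cells in the same 3 treatments. The libraries labelled LATS1/2-DKO are called knockout here. How that line was made, and whether it is a single clone, is not given in the sources used here, so the genotype and the line cannot be told apart. The replicates are described as biological, and whether they came from separate cultures is not given in the sources used here. The p-values thus cover the spread among these 18 libraries and no more.

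Total counts ran from 25478614 to 37148046 a library. In wild type with zinc, replicate 3 stood apart: its counts differed from those of replicates 1 and 2 with chi-square values of 4.96 and 5.04 per degree of freedom, and those 2 differed from each other with 1.88. LATS1 averaged 53.2, 49.1 and 45.3 CPM in cadmium, zinc and water in knockout cells, against 95.3, 80.7 and 79.2 CPM in wild-type cells. LATS2 averaged 25.0, 38.2 and 18.6 CPM in knockout cells, against 41.9, 47.8 and 16.4 CPM in wild-type cells, so its mRNA was not lower in knockout cells in water. The position of the edits in either gene is not given in the sources used here, so these levels do not check the knockout. Erythroid markers, genes of the cells best known for heme synthesis, summed to 0.0851 to 0.601 CPM a library. Among them the globin genes HBB, HBG1 and HBG2 had no count in any library. Macrophage markers summed to 1.69 to 2.65, 1.96 to 2.65 and 1.03 to 1.41 CPM in cadmium, zinc and water in knockout cells, against 1.78 to 2.16, 2.22 to 3.45 and 0.792 to 0.998 CPM in wild-type cells. Hepatocyte markers summed to 0.472 to 0.861, 1.22 to 2.01 and 0.352 to 0.477 CPM in cadmium, zinc and water in knockout cells, against 0.820 to 1.0, 1.57 to 2.31 and 0.345 to 0.624 CPM in wild-type cells. Genes known from HEK293 summed to 2822 to 3142 CPM in knockout libraries and 900.4 to 1120 CPM in wild-type libraries. Most of that gap lay in KRT8 and KRT18, with 1825 and 812 CPM in zinc-treated knockout cells against 309 and 158 CPM in zinc-treated wild type. In the same groups VIM went the other way (217 against 429 CPM) and CDH2 hardly differed (97.7 against 91.2 CPM). The sum thus does not describe these genes as a set. The part of these markers in the results was not tested. In RNA from a whole culture, fewer cells of a kind and less RNA per cell cannot be told apart.

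Heme is made in a chain of enzyme steps that begins with ALAS1 outside the red cell lineage and ends with FECH, which puts iron into protoporphyrin. Heme oxygenases open the ring and release iron, carbon monoxide and biliverdin, which the biliverdin reductases turn into bilirubin. The freed iron is held in ferritin, a shell of FTH1 and FTL chains, or leaves the cell through ferroportin, the product of SLC40A1, while transferrin receptor 1, the product of TFRC, brings iron in. HMOX1 is the inducible heme oxygenase, held down by BACH1 and raised by NRF2, each paired with a small MAF protein. The iron regulatory proteins ACO1 and IREB2 bind a hairpin in some of these mRNAs, where they block translation from a 5′ UTR or protect the mRNA from a 3′ UTR. RNA-seq reads the mRNA and not the protein, so control of translation is not seen here.

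These hairpins, the iron-responsive elements, are shown because they set apart the ferritin, ferroportin and transferrin receptor mRNAs from the other members. The pattern searched in GENCODE 29 transcripts was an unpaired C, a stem of 5 bases, the loop CAGTGN, and 5 bases that pair with the stem, with G and U allowed to pair. Capitals mark the loop, and all sites are on GRCh38. The FTH1 site is at chr11:61967575-61967601 on the minus strand in the 5′ UTR. The FTL site is at chr19:48965336-48965362 on the plus strand, also in the 5′ UTR. The SLC40A1 site is at chr2:189580662-189580688 on the minus strand, again in the 5′ UTR. The 4 TFRC sites lie in its 3′ UTR on the minus strand, at chr3:196050464-196050490, chr3:196050511-196050537, chr3:196050576-196050602 and chr3:196050980-196051006.
FTH1: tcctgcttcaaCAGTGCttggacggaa
FTL: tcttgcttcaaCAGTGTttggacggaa
SLC40A1: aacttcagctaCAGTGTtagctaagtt
TFRC a: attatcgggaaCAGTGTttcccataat
TFRC b: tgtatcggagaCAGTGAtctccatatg
TFRC c: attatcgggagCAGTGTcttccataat
TFRC d: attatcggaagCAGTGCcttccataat
The same pattern was found in the 5′ UTRs of 31 of 19496 genes (0.159%) and in the 3′ UTRs of 128 (0.657%). TFRC was the only gene with 4 or more sites in a 3′ UTR. A match describes the sequence and does not show binding.

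Promoter sequence, the 250 bases before a start site, came from RefSeq on GRCh38.p14 and was matched for 8 of the 10 genes, all but HMOX1 and FTH1. Both strands were searched for the core of the antioxidant response element, TGACNNNGC, which NRF2 and small MAF proteins are known to bind. They were also searched for the core of the metal response element, TGCACNC or TGCGCNC, which the zinc-sensing factor MTF1 is known to bind. The antioxidant core was in 10.9% of 35116 such windows and the metal core in 24.8%. Among the members, the antioxidant core was found in FECH alone, with its first base at -38, counted back from the start site. The metal core was found in SLC40A1 (-186 and -137), ALAS1 (-172), TFRC (-240, and an overlapping pair at -140 and -137), BLVRA (-227), BLVRB (-182) and in 1 of the 2 windows of HMOX2 (-225). FTL held neither. The windows below are those of the exporter and of the enzymes at the start and the end of heme synthesis, which moved in all 4 metal comparisons, with matches in capitals. That of SLC40A1 is chr2:189580787-189581036 on the minus strand, that of ALAS1 chr3:52197833-52198082 on the plus strand and that of FECH chr18:57586703-57586952 on the minus strand.
SLC40A1: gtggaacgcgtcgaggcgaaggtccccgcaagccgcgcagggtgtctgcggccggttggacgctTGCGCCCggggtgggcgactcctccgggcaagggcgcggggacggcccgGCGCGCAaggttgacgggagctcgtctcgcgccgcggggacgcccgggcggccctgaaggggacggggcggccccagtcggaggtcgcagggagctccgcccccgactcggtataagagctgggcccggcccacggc
ALAS1: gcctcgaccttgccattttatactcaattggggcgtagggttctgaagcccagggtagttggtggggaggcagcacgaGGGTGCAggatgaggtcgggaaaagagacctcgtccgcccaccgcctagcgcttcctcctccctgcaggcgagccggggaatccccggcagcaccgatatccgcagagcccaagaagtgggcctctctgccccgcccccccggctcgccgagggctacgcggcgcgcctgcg
FECH: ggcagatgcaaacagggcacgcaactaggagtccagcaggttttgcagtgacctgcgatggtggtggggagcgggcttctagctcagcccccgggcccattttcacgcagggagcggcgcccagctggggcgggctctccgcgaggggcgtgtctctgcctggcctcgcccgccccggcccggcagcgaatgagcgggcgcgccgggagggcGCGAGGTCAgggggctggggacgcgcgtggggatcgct
Of the 2 printed windows with metal cores, that of SLC40A1 belongs to a gene that fell in both metals and that of ALAS1 to a gene that rose in both, while FECH, with the antioxidant core, rose in cadmium and fell in zinc. Among the members with metal cores that are not printed, HMOX2 and TFRC fell in both metals, and BLVRA and BLVRB were not called in every metal comparison. A match is a description, and its part in any change was not tested.

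Levels are the reads of a gene per 1000000 reads counted in a library (CPM), with the library's total scaled by its TMM factor. Changes are log2 fold changes ± a standard error derived from edgeR's quasi-likelihood test, with TMM normalization. The p-values were adjusted by Benjamini-Hochberg over all 19393 genes and called at 0.05. In wild type, cadmium raised 6 and lowered 4 of the 10 genes, where 30.0% of all genes tested were called higher and 31.7% lower (61.7% in either direction). Zinc in wild type raised 4 and lowered 5, against 29.4% and 32.0% of all genes (61.3% in either direction). In knockout cells, cadmium raised 5 and lowered 3, against 23.2% and 23.8% (47.0%), and zinc raised 5 and lowered 4, against 28.2% and 27.7% (55.9%). The median log2 change of the 10 genes was 0.18 in cadmium and 0.08 in zinc in knockout cells, and 0.26 and -0.05 in wild-type cells, beside medians over all genes between -0.014 and 0.0010. A large share of all genes was called in each comparison, so the number of members called is read against it and not as a result of its own. With library size alone as the scale, the median of all genes shifted to -0.12 in cadmium-treated knockout and -0.13 in cadmium-treated wild type. The share of called genes that were higher was then 28.8% in place of 49.3% for cadmium in knockout, 37.2% in place of 50.4% for zinc in knockout and 35.5% in place of 48.6% for cadmium in wild type. No member that was called turned its direction under that scale. Comparisons of cadmium and of zinc within a genotype share the same water libraries.

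**Figure D1:**
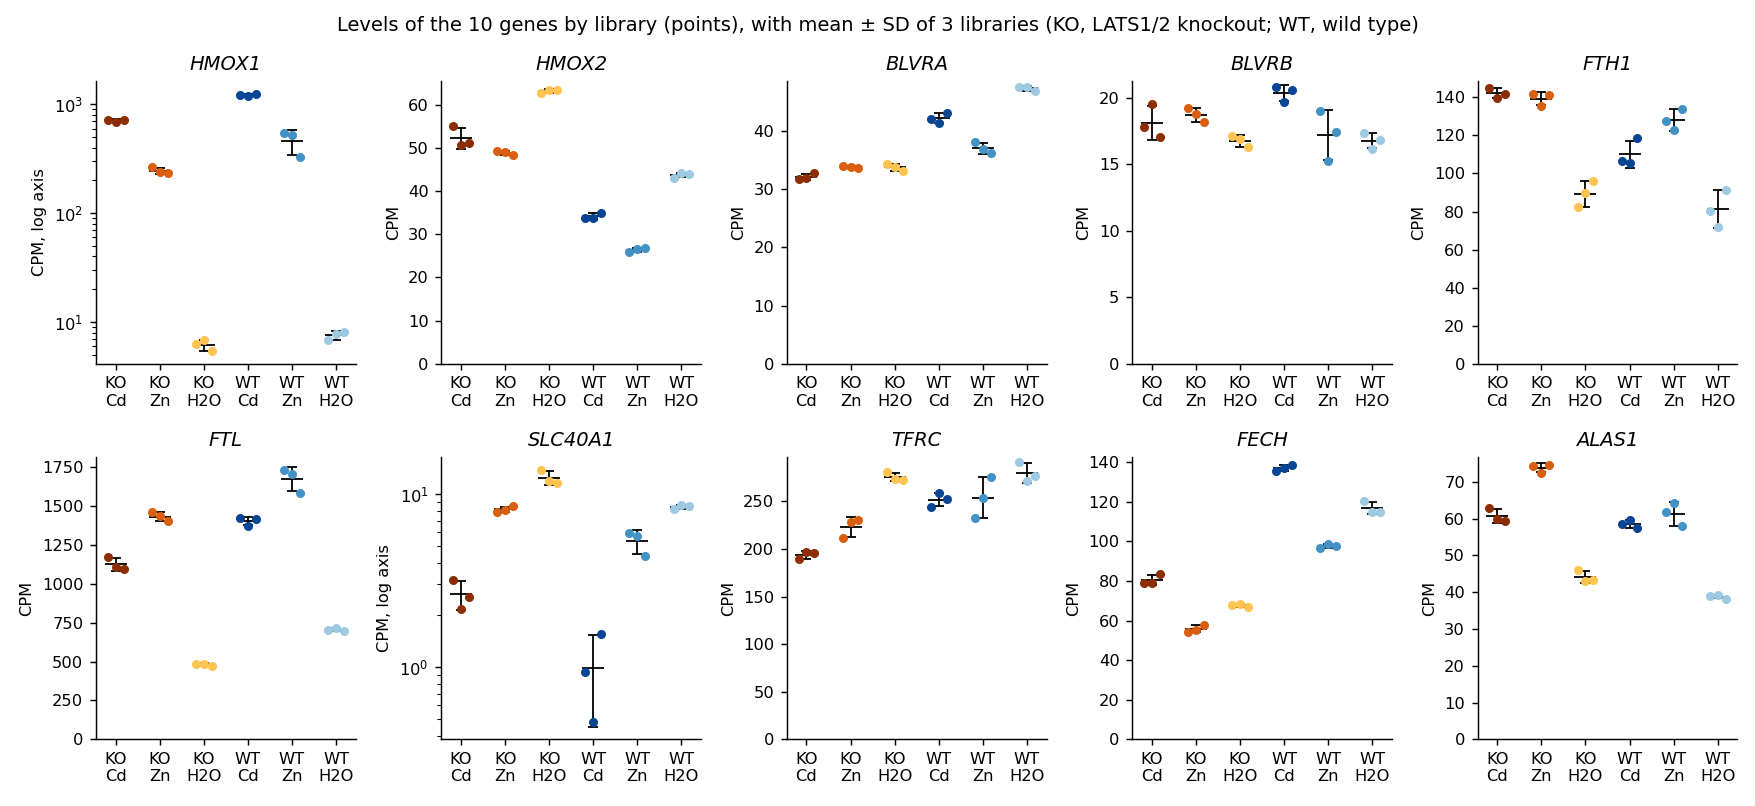
CPM of the 10 genes in each of the 18 libraries (points), with the mean and SD of the 3 libraries of a group in black. Groups run from knockout (KO) to wild type (WT), each in cadmium, zinc and water, and HMOX1 and SLC40A1 are on log axes. HMOX1 lies at 689 to 726 CPM in cadmium-treated knockout libraries and 1189 to 1250 CPM in cadmium-treated wild-type libraries, far above its water libraries, and SLC40A1 lies lowest in cadmium.

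HMOX1 (ENSG00000100292, chr22:35380361-35394214, plus strand, GRCh38), the inducible heme oxygenase, had 726, 689 and 712 CPM in the 3 cadmium-treated knockout libraries, 263, 238 and 237 CPM in zinc and 6.24, 6.77 and 5.43 CPM in water. In wild type it had 1219, 1189 and 1250 CPM in cadmium, 541, 524 and 326 CPM in zinc and 6.79, 7.79 and 8.08 CPM in water. No library of a metal group came near a water library, and the 6 group ranges did not overlap. The low zinc library of wild type is replicate 3, the one that stood apart.

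Cadmium raised HMOX1 by 6.86 ± 0.13 on the log2 scale in knockout cells, a 116-fold change (edgeR adjusted p = 1.56e-33), and by 7.32 ± 0.13 in wild-type cells, a 160-fold change (edgeR adjusted p = 7.00e-35). Zinc raised it by 5.33 ± 0.13 in knockout cells, 40.3-fold, and by 5.93 ± 0.13 in wild-type cells, 60.9-fold (edgeR adjusted p = 1.27e-29 and 1.06e-31). It was higher in cadmium than in zinc, by 1.53 ± 0.08 in knockout cells and 1.39 ± 0.08 in wild-type cells (edgeR adjusted p = 8.20e-18 and 3.12e-17).

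Knockout cells held less HMOX1 mRNA than wild type in both metals. The log2 difference was -0.78 ± 0.08 in cadmium and -0.91 ± 0.08 in zinc (edgeR adjusted p = 6.85e-11 and 3.45e-12). In water it was -0.32 ± 0.21 and was not called (edgeR adjusted p = 0.189), although the libraries did not overlap. The response in knockout minus that in wild type was -0.46 ± 0.23 in cadmium and -0.59 ± 0.23 in zinc, and neither difference passed the test (edgeR adjusted p = 0.133 and 0.0540). Both calls moved with the settings. The zinc difference was called without replicate 3 of zinc-treated wild type (-0.79, edgeR adjusted p = 1.35e-08), with DESeq2 (-0.63, adjusted p = 0.0116) and with the replicate block (-0.58, edgeR adjusted p = 0.0324), among others, and the cadmium difference was called with only the groups compared in the fit (-0.50, edgeR adjusted p = 3.36e-05). Without that replicate the zinc response of wild type was 6.13 and the genotype difference in zinc -1.12.

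HMOX2 (ENSG00000103415, chr16:4474690-4510347, plus strand), the constitutive heme oxygenase, fell in both metals and was higher in knockout than in wild type in every treatment. It had 54.9, 50.6 and 51.0 CPM in cadmium, 49.2, 49.0 and 48.4 CPM in zinc and 62.7, 63.4 and 63.4 CPM in water in knockout cells. Wild-type libraries had 33.6, 33.7 and 35.0 CPM in cadmium, 25.9, 26.5 and 26.8 CPM in zinc and 43.1, 44.1 and 43.9 CPM in water. All knockout libraries lay above all wild-type libraries, and within a genotype the 3 treatments did not overlap.

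HMOX2 fell in cadmium, with changes of -0.27 ± 0.04 in knockout cells and -0.36 ± 0.04 in wild-type cells (log2, edgeR adjusted p = 1.76e-07 and 1.74e-09). In zinc its changes were -0.37 ± 0.04 in knockout cells and -0.73 ± 0.04 in wild-type cells (edgeR adjusted p = 1.15e-10 and 2.14e-17). The zinc responses differed by 0.35 ± 0.06 (edgeR adjusted p = 1.18e-05), while the cadmium responses differed by 0.08 ± 0.06 (edgeR adjusted p = 0.291). Cadmium stood above zinc by 0.10 ± 0.04 in knockout cells, a call lost under 7 other settings, and by 0.37 ± 0.04 in wild-type cells (edgeR adjusted p = 0.0384 and 6.29e-09). HMOX2 was higher in knockout cells by 0.62 ± 0.04 in cadmium, 0.89 ± 0.04 in zinc and 0.53 ± 0.04 in water (edgeR adjusted p = 3.92e-16, 2.42e-20 and 8.31e-15).

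Per kilobase of exon, which allows the pair to be compared, the HMOX1 level was 21.4 ± 0.6, 7.94 ± 0.43 and 0.153 ± 0.017 times that of HMOX2 in cadmium, zinc and water in knockout cells, and 56.4 ± 0.8, 27.8 ± 7.5 and 0.273 ± 0.021 times in wild-type cells (SD, n = 3 each). In water HMOX2 was thus the more abundant heme oxygenase mRNA in both genotypes, and in both metals HMOX1 was. The ratio in zinc-treated wild type ran from 19.2, in replicate 3, to 32.9. Of the exon bases of HMOX2, 228 of 3793 also belong to NMRAL1 on the opposite strand.

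BLVRA and BLVRB, the biliverdin reductases that act after heme oxygenase, changed little beside HMOX1. BLVRA (ENSG00000106605, chr7:43758680-43807342, plus strand) had 31.7, 31.9 and 32.8 CPM in cadmium, 34.0, 33.9 and 33.6 CPM in zinc and 34.3, 33.8 and 33.2 CPM in water in knockout cells. Wild-type libraries had 42.1, 41.4 and 43.2 CPM in cadmium, 38.1, 36.9 and 36.2 CPM in zinc and 47.7, 47.6 and 46.8 CPM in water. Its wild-type treatments did not overlap, and its zinc and water libraries of knockout did.

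In wild type BLVRA changed by -0.16 ± 0.04 in cadmium and -0.35 ± 0.04 in zinc against water (log2, edgeR adjusted p = 5.02e-04 and 1.06e-09). In knockout cells it was at -0.07 ± 0.04 in cadmium and 0.0041 ± 0.04 in zinc, and neither was called (edgeR adjusted p = 0.174 and 0.945). The zinc responses differed between genotypes by 0.36 ± 0.06 (edgeR adjusted p = 1.06e-05). Knockout cells held less BLVRA than wild type, with differences of -0.40 ± 0.04 in cadmium, -0.13 ± 0.04 in zinc and -0.49 ± 0.04 in water (edgeR adjusted p = 1.03e-10, 0.00644 and 2.48e-13). With library size alone as the scale, the fall in cadmium-treated knockout cells was called as well (-0.18, edgeR adjusted p = 3.27e-04).

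BLVRB (ENSG00000090013, chr19:40447765-40465840, minus strand) had 17.1 to 19.5, 18.2 to 19.2 and 16.3 to 17.1 CPM in cadmium, zinc and water in knockout cells, against 19.7 to 20.8, 15.3 to 19.0 and 16.2 to 17.3 CPM in wild-type cells. It rose in cadmium-treated wild type by 0.28 ± 0.06 (log2, edgeR adjusted p = 2.57e-04), and those 3 libraries lay above all zinc and water libraries of wild type. Its rise in zinc-treated knockout cells (0.16 ± 0.06, edgeR adjusted p = 0.0314) and its lower level in knockout than wild type in cadmium (-0.17 ± 0.06, edgeR adjusted p = 0.0168) were lost under 7 and 4 of the other settings.

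FTL (ENSG00000087086, chr19:48965301-48966878, plus strand), the ferritin light chain, rose in both metals and more in zinc than in cadmium. It had 1173, 1106 and 1097 CPM in cadmium, 1459, 1433 and 1402 CPM in zinc and 487, 487 and 474 CPM in water in knockout cells. Wild-type libraries had 1422, 1373 and 1416 CPM in cadmium, 1730, 1707 and 1584 CPM in zinc and 703, 716 and 696 CPM in water. Metal and water libraries did not overlap in either genotype, and zinc lay above cadmium in both.

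In cadmium FTL rose by 1.22 ± 0.03 in knockout cells and 0.99 ± 0.03 in wild-type cells, and in zinc by 1.57 ± 0.03 in knockout cells and 1.25 ± 0.03 in wild-type cells (log2, edgeR adjusted p at most 3.87e-27). Cadmium stood below zinc, with differences of -0.35 ± 0.03 in knockout cells and -0.25 ± 0.03 in wild-type cells (edgeR adjusted p = 8.15e-13 and 1.36e-09). The responses were larger in knockout cells by 0.23 ± 0.04 in cadmium and 0.32 ± 0.04 in zinc (edgeR adjusted p = 4.33e-05 and 1.34e-07). The level was nonetheless lower in knockout than in wild type, with differences of -0.32 ± 0.03 in cadmium, -0.23 ± 0.03 in zinc and -0.55 ± 0.03 in water (edgeR adjusted p = 2.24e-12, 1.05e-08 and 8.38e-19).

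FTH1 (ENSG00000167996, chr11:61959718-61967660, minus strand), the ferritin heavy chain with the ferroxidase activity, is the member whose level depends on how reads were counted. The table counts both strands together, and 1267 of the 2030 exon bases of FTH1 also belong to exons of BEST1 on the opposite strand. The count of both strands was 16.7 to 21.5% of the count of the strand with most reads for FTH1, and no less than that count and at most 104% of it for each of the other 9 genes. BEST1 itself moved with the metals, at 6.58, 2.16 and 0.734 CPM in cadmium, zinc and water in knockout cells and 19.5, 10.4 and 0.563 CPM in wild-type cells.

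By the count of both strands, FTH1 had 145, 140 and 142 CPM in cadmium, 142, 135 and 141 CPM in zinc and 82.3, 89.6 and 95.9 CPM in water in knockout cells. Wild-type libraries had 106, 105 and 118 CPM in cadmium, 128, 123 and 134 CPM in zinc and 80.3, 71.9 and 91.6 CPM in water. The metal libraries lay above the water libraries in both genotypes, and the genotypes overlapped in water. By the strand with most reads, the means were 765 ± 26, 775 ± 23 and 489 ± 20 CPM in cadmium, zinc and water in knockout cells, and 583 ± 11, 667 ± 20 and 399 ± 18 CPM in wild-type cells (SD, n = 3 each), with no overlap between genotypes in any treatment.

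FTH1 rose in cadmium by 0.67 ± 0.05 in knockout cells and 0.43 ± 0.05 in wild-type cells, and in zinc by 0.64 ± 0.05 in knockout cells and 0.65 ± 0.05 in wild-type cells (log2, edgeR adjusted p at most 7.66e-09). On the strand with most reads the same changes were 0.65, 0.55, 0.66 and 0.74. The larger cadmium response of knockout cells (0.23 ± 0.08, edgeR adjusted p = 0.0179) was 0.10 on that strand and was not called (edgeR adjusted p = 0.0962). FTH1 was higher in knockout cells by 0.37 ± 0.05 in cadmium, 0.12 ± 0.05 in zinc and 0.14 ± 0.06 in water (edgeR adjusted p = 7.99e-08, 0.0394 and 0.0307). The zinc and water differences were lost when single libraries were left out or with DESeq2, and were 0.22 and 0.29 on the strand with most reads (edgeR adjusted p = 2.18e-07 and 6.78e-10).

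**Figure D2:**
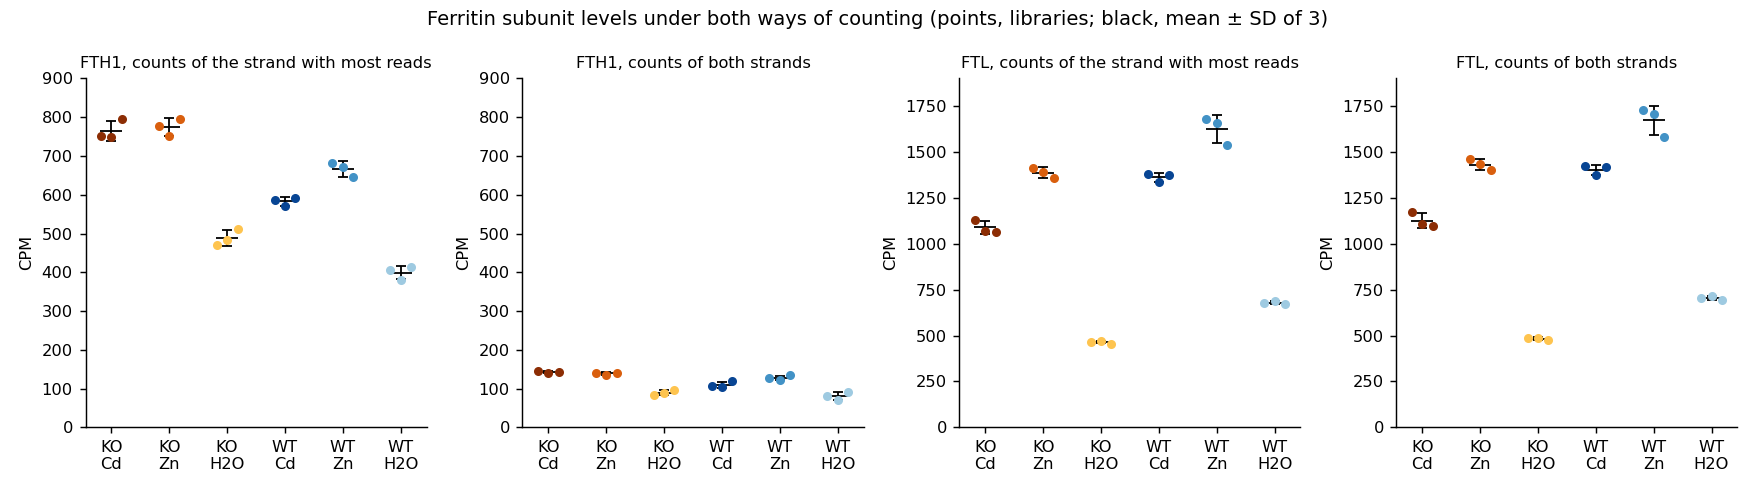
CPM of the ferritin chains FTH1 and FTL in the 18 libraries (points, with mean and SD of 3 in black), counted on the strand with most reads and on both strands, with the same axis for both counts of a gene. FTH1 lies at 379 to 796 CPM on the strand with most reads and at 71.9 to 145 CPM by both strands, whereas FTL hardly differs between the counts.

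The balance of the ferritin chains moved with treatment and genotype. Per kilobase of exon, FTL was 3.29 ± 0.19, 4.14 ± 0.17 and 2.20 ± 0.11 times FTH1 in cadmium, zinc and water in knockout cells on the strand with most reads, and 5.40 ± 0.05, 5.63 ± 0.10 and 3.94 ± 0.23 times in wild-type cells (SD, n = 3 each). The 3 libraries of every knockout group lay below those of the wild-type group in the same treatment. By both strands the same ratios were 18.3, 23.8 and 12.6 in knockout cells and 29.6, 30.3 and 20.3 in wild-type cells, several times higher. Ferritin has many processed pseudogenes, and reads that fit several places may be split in a way the sources used here do not give. The 25 annotated FTH1 pseudogenes summed to 0.741 to 0.848% of the FTH1 count in a group on the strand with most reads and to 4.04 to 4.90% by both strands, where the FTH1 count is the smaller one. The 16 FTL pseudogenes summed to 0.294 to 0.397% of the FTL count by both strands.

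SLC40A1 (ENSG00000138449, chr2:189560579-189583758, minus strand), the iron exporter ferroportin, fell in both metals and furthest in cadmium. It had 3.17, 2.16 and 2.55 CPM in cadmium, 7.88, 8.06 and 8.50 CPM in zinc and 13.8, 11.9 and 11.6 CPM in water in knockout cells. Wild-type libraries had 0.940, 0.478 and 1.55 CPM in cadmium, from 30, 14 and 50 reads, with 5.96, 5.74 and 4.36 CPM in zinc and 8.21, 8.65 and 8.48 CPM in water. Every knockout group lay above the wild-type group in the same treatment, with no overlap.

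In cadmium the change of SLC40A1 was -2.21 ± 0.13 in knockout cells, to 0.217 of its water level, and -3.07 ± 0.17 in wild-type cells, to 0.119 (log2, edgeR adjusted p = 5.01e-17 and 3.23e-18). In zinc its change was -0.60 ± 0.11 in knockout cells and -0.66 ± 0.12 in wild-type cells (edgeR adjusted p = 7.26e-06 and 1.60e-05). Cadmium stood below zinc, with differences of -1.60 ± 0.14 in knockout cells and -2.40 ± 0.19 in wild-type cells (edgeR adjusted p = 3.84e-12 and 1.09e-13). It was higher in knockout than in wild type by 1.41 ± 0.22 in cadmium, 0.61 ± 0.12 in zinc and 0.55 ± 0.11 in water (edgeR adjusted p = 5.01e-07, 4.82e-05 and 2.41e-05). The cadmium responses differed by 0.86 ± 0.25 (edgeR adjusted p = 0.00761), a call that was lost without replicate 2 of cadmium-treated wild type (0.55, edgeR adjusted p = 0.0817) or replicate 1 of cadmium-treated knockout (0.68, edgeR adjusted p = 0.0572). The zinc responses differed by 0.06 ± 0.16 (edgeR adjusted p = 0.857).

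TFRC (ENSG00000072274, chr3:196027183-196082189, minus strand), which takes up iron bound to transferrin, fell in both metals. It had 190, 197 and 195 CPM in cadmium, 211, 229 and 230 CPM in zinc and 281, 274 and 273 CPM in water in knockout cells. Wild-type libraries had 244, 259 and 253 CPM in cadmium, 233, 254 and 275 CPM in zinc and 292, 272 and 277 CPM in water. In knockout cells the 3 treatments did not overlap, whereas in wild type the zinc libraries spread across the range of cadmium and reached the water libraries.

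The change of TFRC was -0.51 ± 0.04 in knockout cells and -0.15 ± 0.04 in wild-type cells in cadmium, and in zinc -0.30 ± 0.04 in knockout cells and -0.14 ± 0.04 in wild-type cells (log2, edgeR adjusted p at most 0.00201). The wild-type zinc call was lost without replicate 1 of its zinc libraries (-0.08, edgeR adjusted p = 0.0655). The fall was deeper in knockout cells, with differences of -0.35 ± 0.06 in cadmium and -0.16 ± 0.06 in zinc (edgeR adjusted p = 4.41e-06 and 0.0266). The zinc difference was lost on leaving out any of 5 libraries, among them replicate 3 of zinc-treated wild type (-0.10, edgeR adjusted p = 0.142). Knockout cells held less TFRC in cadmium (-0.38 ± 0.04, edgeR adjusted p = 1.03e-10) and in zinc (-0.19 ± 0.04, edgeR adjusted p = 8.21e-05), and were at -0.02 ± 0.04 in water, not called.

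ALAS1 (ENSG00000023330, chr3:52198086-52214327, plus strand), the rate-limiting enzyme of heme synthesis in non-erythroid cells, rose in both metals. It had 62.8, 59.9 and 59.2 CPM in cadmium, 74.4, 72.5 and 74.6 CPM in zinc and 46.0, 43.1 and 43.4 CPM in water in knockout cells. Wild-type libraries had 58.5, 59.5 and 57.5 CPM in cadmium, 61.8, 64.3 and 57.9 CPM in zinc and 38.9, 39.2 and 38.2 CPM in water. Metal and water libraries were apart in both genotypes.

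The rises of ALAS1 were 0.46 ± 0.04 in cadmium and 0.74 ± 0.04 in zinc in knockout cells, and 0.59 ± 0.04 in cadmium and 0.66 ± 0.04 in zinc in wild-type cells (log2, edgeR adjusted p at most 4.10e-12). Cadmium stood below zinc in knockout cells (-0.28 ± 0.04, edgeR adjusted p = 1.56e-07), and the same comparison in wild type was at -0.07 ± 0.04, not called (edgeR adjusted p = 0.162). ALAS1 was higher in knockout than in wild type in zinc (0.27 ± 0.04, edgeR adjusted p = 1.82e-07) and in water (0.19 ± 0.04, edgeR adjusted p = 2.93e-04), and was at 0.05 ± 0.04 in cadmium, not called. The difference of its responses was not called in either metal.

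FECH (ENSG00000066926, chr18:57548283-57586772, minus strand), the ferrochelatase that completes heme, was the member that zinc and cadmium moved in opposite directions. It had 79.1, 79.0 and 83.4 CPM in cadmium, 54.4, 55.5 and 57.8 CPM in zinc and 67.9, 68.4 and 66.7 CPM in water in knockout cells. Wild-type libraries had 136, 137 and 138 CPM in cadmium, 96.7, 98.8 and 97.7 CPM in zinc and 121, 115 and 115 CPM in water. The order cadmium, water, zinc held without overlap in both genotypes, and every knockout library lay below every wild-type library.

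Cadmium raised FECH by 0.25 ± 0.03 in knockout cells and 0.23 ± 0.03 in wild-type cells, and its zinc changes were -0.27 ± 0.04 in knockout cells and -0.26 ± 0.03 in wild-type cells (log2, edgeR adjusted p at most 1.28e-07). Cadmium stood above zinc by 0.53 ± 0.04 in knockout cells and 0.49 ± 0.03 in wild-type cells (edgeR adjusted p = 2.63e-15 and 1.22e-15). Knockout cells held less FECH, with differences of -0.77 ± 0.03 in cadmium, -0.81 ± 0.04 in zinc and -0.79 ± 0.03 in water (edgeR adjusted p at most 8.18e-22). The responses differed between genotypes by 0.02 ± 0.05 in cadmium and -0.02 ± 0.05 in zinc, and neither was called (edgeR adjusted p = 0.801 and 0.842).

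**Figure D3:**
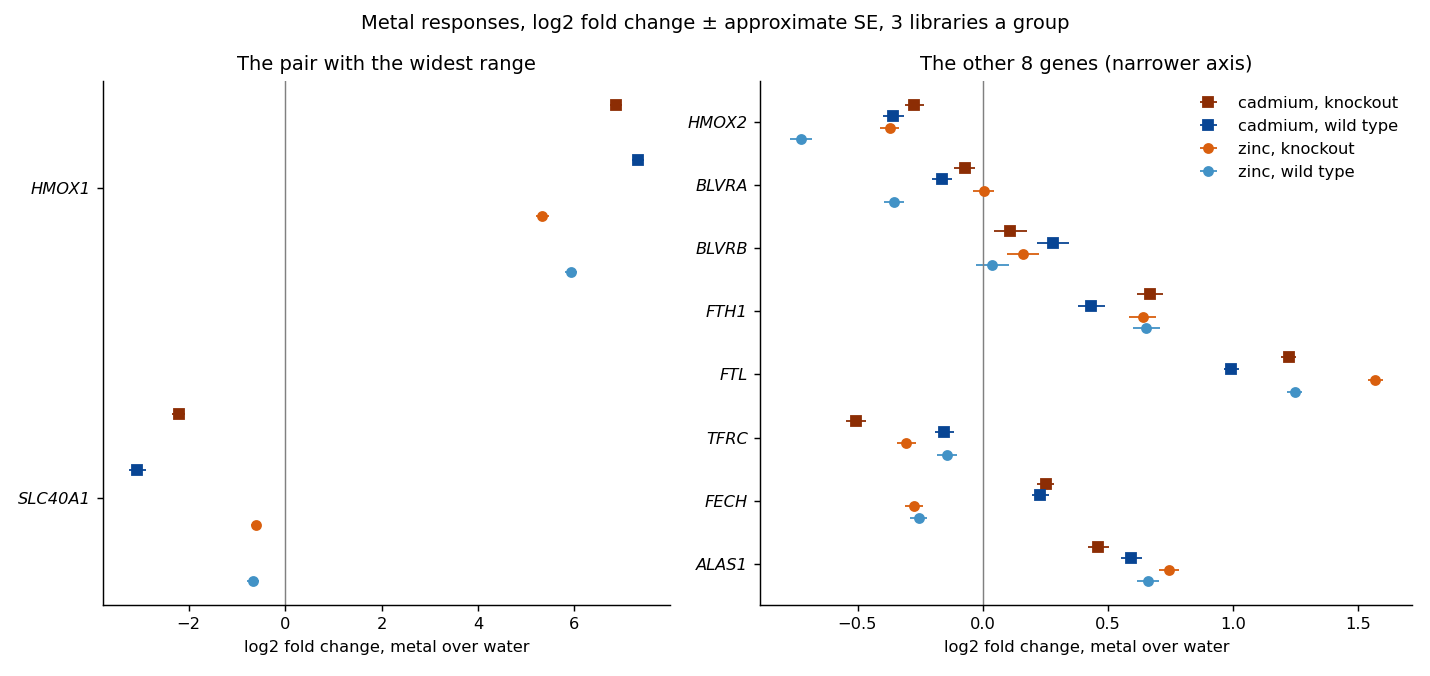
Log2 fold change of each gene in metal over water, with an approximate standard error, for cadmium and zinc in knockout and wild-type cells (3 libraries a group). HMOX1 (5.33 to 7.32) and SLC40A1 (-3.07 to -0.60) have an axis of their own, and FECH is the gene whose cadmium points (0.23 and 0.25) and zinc points (-0.27 and -0.26) lie on opposite sides of 0.

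Between genotypes, 3 members were called higher and 6 lower in knockout than in wild type in cadmium, where 32.6% and 34.5% of all genes tested were (67.1% in either direction). In zinc 4 were higher and 5 lower, against 34.0% and 32.7% of all genes (66.7%), and in water 4 were higher and 3 lower, against 30.8% and 32.1% (62.9%). HMOX2, FTH1 and SLC40A1 were called higher in knockout in all 3 treatments, and BLVRA, FTL and FECH lower in all 3. The differences of the metal responses were called for 4 members each. In cadmium FTH1, FTL and SLC40A1 had a higher and TFRC a lower response in knockout, beside 14.0% and 14.1% of all genes (28.1% in either direction). In zinc HMOX2, BLVRA and FTL had a higher and TFRC a lower response, beside 14.1% and 10.5% of all genes (24.6%). Cadmium against zinc called 3 members higher and 4 lower in knockout cells, beside 24.0% and 24.3% of all genes (48.2%), and 5 higher and 3 lower in wild-type cells, beside 27.3% and 25.0% (52.3%).

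**Figure D4:**
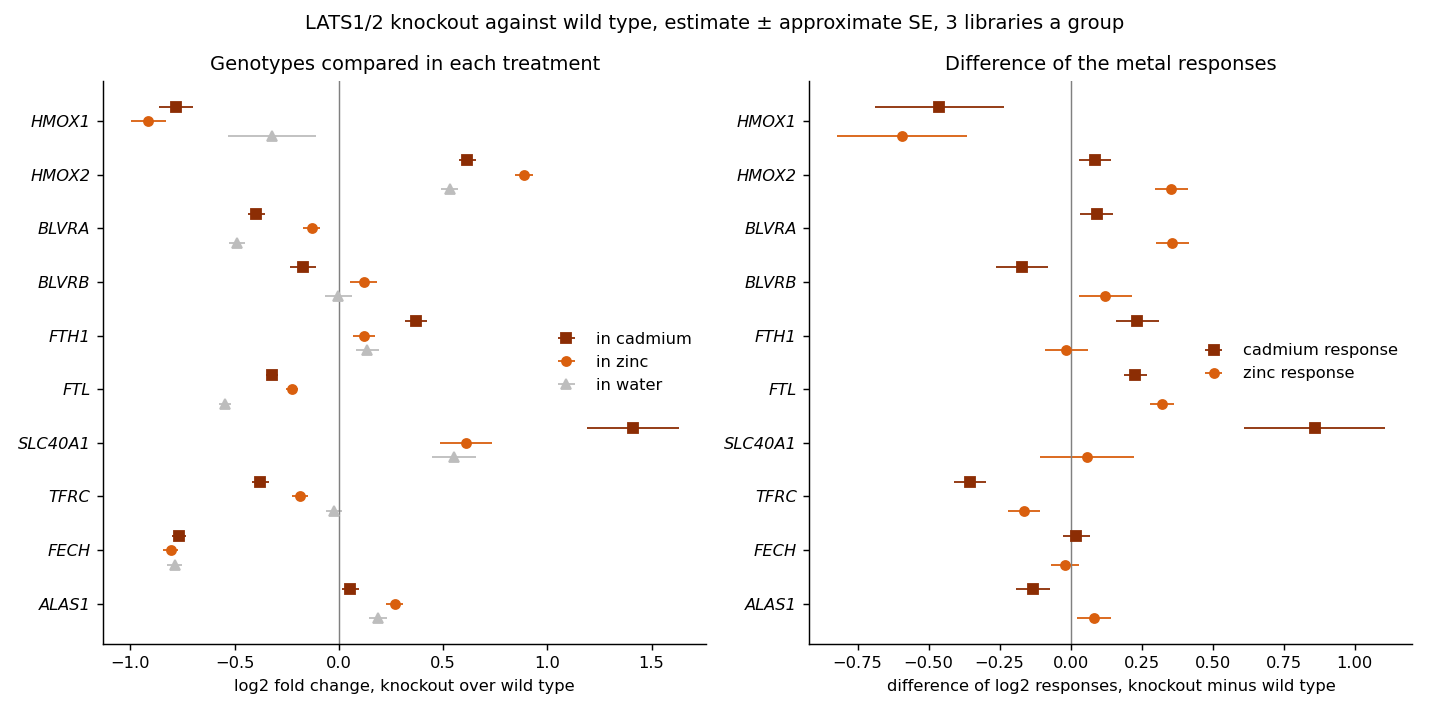
Left, log2 fold change of each gene in knockout over wild type in cadmium, zinc and water. Right, difference of the log2 metal response, knockout minus wild type (bars, approximate standard error, 3 libraries a group). FECH lies between -0.81 and -0.77 in all treatments with response differences near 0, and SLC40A1 in cadmium has the highest estimate on both sides (1.41 and 0.86).

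Per kilobase of exon the order of the members' levels in water was FTL, FTH1, TFRC, BLVRA, ALAS1, HMOX2, FECH, BLVRB, SLC40A1 and HMOX1 in knockout cells, and FTL, FTH1, TFRC, FECH, BLVRA, ALAS1, HMOX2, BLVRB, HMOX1 and SLC40A1 in wild-type cells. SLC40A1 and HMOX1 overlapped in knockout libraries, as did FTH1 with TFRC and FECH with BLVRA in wild-type libraries. These orders use the count of both strands, which for FTH1 was 16.7 to 21.5% of the count of the strand with most reads. For TFRC it was 100.2 to 100.5%, so the overlap of FTH1 with TFRC holds for the count of both strands only. In each metal HMOX1 stood second, between FTL and FTH1, in both genotypes by the count of both strands. By the strand with most reads, FTH1 averaged 377 and 382 CPM per kilobase in cadmium and zinc in knockout cells and 287 and 328 in wild-type cells. HMOX1 there averaged 285 and 99.0 in knockout cells and 492 and 187 in wild-type cells, so it stood above FTH1 on that strand in cadmium-treated wild type alone.

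Of the 8 tested enzymes of heme synthesis, ALAS1 and FECH included, 2 rose and 6 fell in cadmium in each genotype. In zinc 1 rose and 5 fell in knockout cells, and 1 rose and 6 fell in wild-type cells. Among all genes tested, 23.8% fell in cadmium and 27.7% in zinc in knockout cells, and 31.7% and 32.0% in wild-type cells. The list's median log2 change was -0.19 in cadmium and -0.15 in zinc in knockout cells, and -0.24 and -0.27 in wild-type cells, beside medians of all genes between -0.014 and 0.0010. CPOX, which makes protoporphyrinogen, had 41.4 CPM in cadmium, 38.0 CPM in zinc and 61.8 CPM in water in knockout cells, against 34.4, 39.2 and 71.8 CPM in wild-type cells. Its log2 changes were -0.58 ± 0.04 in cadmium and -0.70 ± 0.04 in zinc in knockout cells, and -1.06 ± 0.04 and -0.87 ± 0.04 in wild-type cells (edgeR adjusted p at most 3.64e-14), and its cadmium responses differed by 0.48 ± 0.06 (edgeR adjusted p = 1.56e-07). PPOX, the next enzyme, fell as well, with changes of -0.61 ± 0.08 and -0.55 ± 0.08 in knockout cells and -0.93 ± 0.08 and -0.88 ± 0.08 in wild-type cells (edgeR adjusted p at most 2.66e-07).

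**Figure D5:**
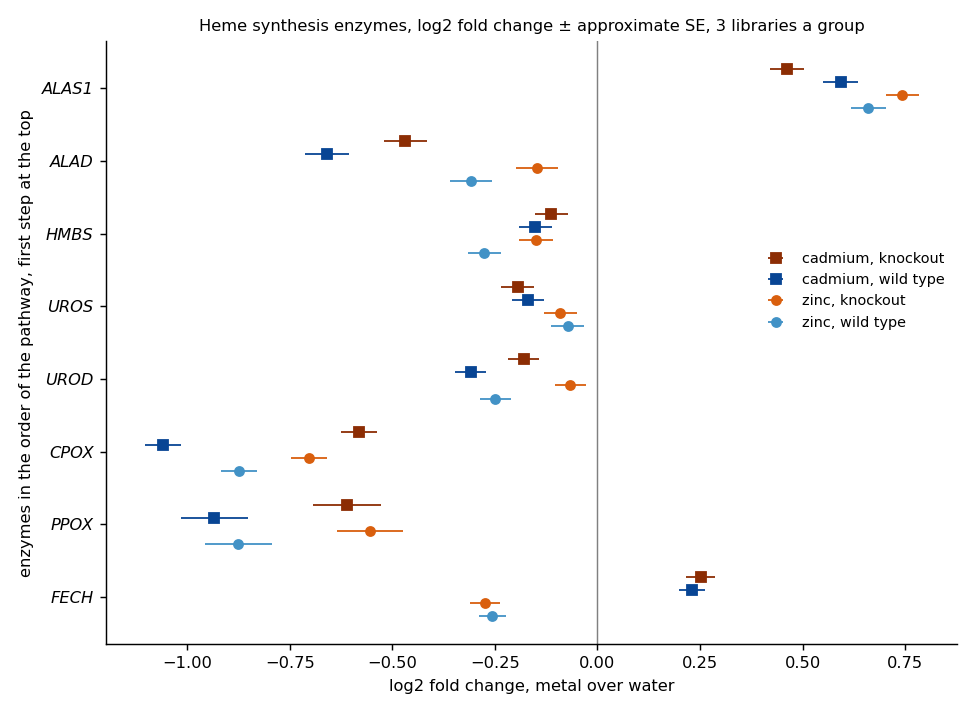
Log2 fold change in metal over water of the 8 tested heme synthesis enzymes in the order of the pathway, with an approximate standard error (3 libraries a group). ALAS1 at the top lies at 0.46 to 0.74, CPOX and PPOX near the end at -1.06 to -0.55, and FECH at the bottom splits by metal.

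In the list of NRF2 and BACH1 regulators, 6 of 8 genes rose in all 4 metal comparisons, NFE2L1 fell in all 4, and KEAP1, the adaptor that marks NRF2 for degradation, fell in 3. In the same comparisons, 23.2% of all genes rose in cadmium and 28.2% in zinc in knockout cells, and 30.0% and 29.4% in wild-type cells. The median log2 change of the 8 genes was 1.03 and 1.28 in knockout cells and 1.72 and 1.59 in wild-type cells, in cadmium and zinc. MAFF, a small MAF protein, had 53.2, 156 and 3.35 CPM in cadmium, zinc and water in knockout cells, and 105, 142 and 1.95 CPM in wild-type cells. It rose by 3.99 ± 0.08 in cadmium and 5.54 ± 0.07 in zinc in knockout cells, and by 5.74 ± 0.08 and 6.16 ± 0.08 in wild-type cells. MAFG rose by 2.17 and 2.25 in knockout cells and 2.23 and 2.30 in wild-type cells, and MAFK by 2.29 and 2.03 in knockout cells and 2.72 and 1.84 in wild-type cells (log2, edgeR adjusted p at most 6.47e-28 for these 3 genes).

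NFE2L2, which encodes NRF2, rose by 1.07 ± 0.04 and 1.10 ± 0.04 in knockout cells and 1.70 ± 0.04 and 1.35 ± 0.04 in wild-type cells, in cadmium and zinc. BACH1, the repressor of HMOX1, rose as well, by 0.99 ± 0.05 and 1.46 ± 0.05 in knockout cells and 1.73 ± 0.05 and 1.82 ± 0.05 in wild-type cells. BACH2, a related repressor, rose by 0.46 and 0.75 in knockout cells and 1.26 and 0.85 in wild-type cells. The cadmium responses of NFE2L2, BACH1, BACH2 and MAFF were smaller in knockout cells, with differences of -0.63, -0.74, -0.80 and -1.75 (edgeR adjusted p at most 5.83e-10). The zinc responses of NFE2L2, BACH1 and MAFF were smaller there too, with differences of -0.24, -0.36 and -0.62 (edgeR adjusted p at most 0.00296). That of BACH2 differed by -0.11 in zinc and was not called (edgeR adjusted p = 0.354). NFE2L1, a relative of NRF2, fell, with changes of -0.31 in cadmium and -0.59 in zinc in knockout cells and -0.59 and -0.74 in wild-type cells. KEAP1 fell, with changes of -0.49 in zinc in knockout cells and -0.40 in cadmium and -0.59 in zinc in wild-type cells, and was at -0.05 in cadmium in knockout cells, not called (edgeR adjusted p = 0.221).

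Of 12 other known NRF2 targets tested, 11 rose in cadmium and 11 in zinc in knockout cells, and 9 and 10 in wild-type cells. The shares of all genes that rose were 23.2% and 28.2% in knockout cells and 30.0% and 29.4% in wild-type cells. Their median log2 change was 0.63 in cadmium and 0.52 in zinc in knockout cells, and 0.70 and 0.60 in wild-type cells. SLC7A11, the cystine importer, had 116, 96.2 and 22.1 CPM in cadmium, zinc and water in knockout cells and 157, 191 and 21.4 CPM in wild-type cells. GCLM, the modifier subunit of glutathione synthesis, had 218, 215 and 52.6 CPM in knockout cells and 259, 242 and 65.3 CPM in wild-type cells. TXNRD1, thioredoxin reductase, had 884, 587 and 321 CPM in knockout cells and 1037, 551 and 322 CPM in wild-type cells, and OSGIN1 5.80, 5.15 and 1.09 CPM against 6.11, 3.75 and 1.18 CPM. SLC7A11 was lower in knockout than in wild type in zinc (-0.99 ± 0.05, edgeR adjusted p = 1.29e-19), while in water it was at 0.04 ± 0.07, not called.

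The counts of the other iron and heme lists are read against the 47.0% and 55.9% of all genes called in cadmium and zinc in knockout cells, and the 61.7% and 61.3% in wild-type cells, split about evenly between rises and falls. Among 8 tested genes of iron uptake and reduction, TFRC included, 1 rose and 5 fell in cadmium and 1 rose and 6 fell in zinc in knockout cells, and 1 rose and 6 fell in cadmium and 6 fell in zinc in wild-type cells. Their median log2 change was -0.21 in cadmium and -0.26 in zinc in knockout cells, and -0.32 and -0.17 in wild-type cells. CYBRD1, a ferric reductase, was lower in knockout than in wild type, with 7.11, 7.82 and 8.63 CPM in cadmium, zinc and water in knockout cells against 14.7, 16.1 and 17.5 CPM in wild-type cells. Of 7 genes of iron storage and its chaperones, 4 rose in each metal in knockout cells, and 4 and 5 rose and 2 and 2 fell in cadmium and zinc in wild-type cells. In knockout cells the number called there, 4 of 7, is near the share of all genes called. PCBP3, a relative of the iron chaperones, had 0.907, 0.611 and 0.451 CPM in knockout cells against 1.67, 1.62 and 1.06 CPM in wild-type cells. At these low levels its zinc change in knockout cells was not called (edgeR adjusted p = 0.185), and those libraries overlapped. SLC40A1 was the only tested gene of the iron export list.

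The counts that follow are read against the same shares of all genes, from 47.0% called in cadmium-treated knockout cells to 61.7% in cadmium-treated wild type. In cadmium-treated knockout cells, the called genes were a smaller share for iron sensing (2 of 6) and for heme transport and binding (3 of 10). In cadmium-treated wild type they were a larger share for both lists. The lists are short, so these shares are not read as a result of their own. Of 6 tested genes of iron sensing, 2 fell in cadmium and 4 in zinc in knockout cells, and 1 rose and 5 fell in cadmium and 1 rose and 4 fell in zinc in wild-type cells. FBXL5, the iron-binding factor that marks IREB2 for degradation, had 44.1, 30.3 and 54.9 CPM in cadmium, zinc and water in knockout cells and 36.7, 25.2 and 54.2 CPM in wild-type cells, with log2 changes of -0.31 in cadmium and -0.86 in zinc in knockout cells and -0.56 and -1.10 in wild-type cells. HFE, which takes part in sensing transferrin iron, had 0.114, 0.163 and 0.0604 CPM in knockout cells and 0.362, 0.401 and 0.0739 CPM in wild-type cells, and TMPRSS6, a protease of the hepcidin pathway, 0.475, 0.768 and 0.623 CPM against 0.216, 0.343 and 0.496 CPM. These levels rest on 0 to 15 reads a library for HFE and 4 to 31 for TMPRSS6. Of 14 genes of mitochondrial iron and iron-sulfur clusters, 4 rose and 7 fell in cadmium and 3 rose and 8 fell in zinc in knockout cells, and 2 rose and 7 fell in cadmium and 1 rose and 9 fell in zinc in wild-type cells. SLC25A28, the mitochondrial iron importer mitoferrin 2, had 18.5, 21.8 and 31.1 CPM in cadmium, zinc and water in knockout cells and 14.0, 15.9 and 29.1 CPM in wild-type cells. Of 10 genes of heme transport and binding, 3 fell in cadmium and 1 rose and 4 fell in zinc in knockout cells, and 2 rose and 5 fell in cadmium and 5 fell in zinc in wild-type cells. FLVCR2, a transporter related to the heme exporter FLVCR1, had 1.40, 1.02 and 1.75 CPM in knockout cells against 0.575, 0.521 and 0.860 CPM in wild-type cells. Its cadmium changes were not called in knockout or wild-type cells (edgeR adjusted p = 0.219 and 0.071), and the libraries overlapped.

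Genes whose log2 CPM ran most like a member's over the 18 libraries were sought among 10805 protein-coding genes with a mean of at least 5 CPM, as a description. For HMOX1 they were XBP1 (Pearson r 0.990), MAFK, HECA, MCL1 and ZFAND2A, for ALAS1 FAM83G (0.988), KDM6B, TNFRSF12A, HSPB8 and ELL2. For SLC40A1 they were PSKH1 (0.968), CES3, TPBG, ZC3H7B and MARK2, and for TFRC NUDT19 (0.950), TIMM9, ICE1, USF3 and FANCM. The libraries share treatment and genotype groups, so the 18 points are not independent. XBP1 averaged 330, 270 and 123 CPM in cadmium, zinc and water in knockout cells and 366, 325 and 108 CPM in wild-type cells, the same order within each genotype as HMOX1 over a far narrower range.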

How the data were processed

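RNA of 18 HEK293A libraries, 3 for each of 6 groups of genotype and treatment, was prepared with TRIzol and TruSeq stranded mRNA kits, per the labels' protocols. The authors deposited raw read counts for each Ensembl gene ID, once as a table of all libraries and once as a file for each library. STAR and the builds hg38 and GRCh38.p13 are named in the submitters' processing notes. The sources used here give neither the STAR version nor the annotation, the counter or how it treats ambiguous reads. The series table equals the first of 3 count columns in the sample files, which takes both strands together, so reads of overlapping genes on opposite strands cannot be told apart in it. The column with fewest reads holds 5.24 to 5.94% of that count, and the column with most reads was an alternative.

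The 10 members and the gene lists were chosen with earlier results of these data known. Symbols, exon lengths and UTRs came from GENCODE 29, which holds 58216 of the 58336 gene IDs. Promoters came from RefSeq. The 19393 genes that passed the filter filterByExpr of edgeR, at its minimum count of 10, were fitted with TMM factors (0.941 to 1.07) and edgeR's quasi-likelihood test on a model of the 6 groups. Adjusted p-values are Benjamini-Hochberg over all genes of a comparison, with a threshold of 0.05, and standard errors were derived from the F statistic. CPM values use a library's total count over the genes that passed the filter, multiplied by its TMM factor. The median biological coefficient of variation was 3.93%, and a gene at 5 CPM had over 100 reads in every library. Pairs of libraries within a group differed by more than sampling noise (chi-square per degree of freedom 1.61 to 5.04), so none was a copy. The test was checked on simulated data. Tools were R 4.3.3, edgeR 4.0.16, limma 3.58.1, DESeq2 1.42.0, Python 3.11.15, numpy 2.4.6 and pandas 2.3.3.

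In all, 11 contrasts were tested, and alternatives were DESeq2 and its size factors, library size alone, no filter, the strand with most reads, only the groups compared, a replicate block and leaving out each library. Named genes were all members, list genes with a log2 change of at least 1 in size (up to 4 a list, by size), all NRF2 and BACH1 regulators, and the 5 nearest genes by pattern of 4 members. PPOX, BEST1 and NMRAL1 were chosen after their values were seen. Same-numbered libraries deviated together, with every correlation over 0.1, for knockout against wild type in cadmium (0.116 to 0.348) and cadmium against zinc in wild type (0.147 to 0.190). In the other comparisons of a pair of groups not every correlation was over 0.1. Among these, cadmium against zinc in knockout ran from 0.0578 to 0.288, and knockout against wild type in water from 0.0434 to 0.124. The labels do not say what the replicate number stands for.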

Additional observations from a re-analysis of the deposited data

Results flagged for a closer look

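The results below stood out because the response to a metal differed between the genotypes by the test of that difference (edgeR's quasi-likelihood test, knockout minus wild type, log2, n = 3 libraries a group). In zinc the response was higher in knockout cells for HMOX2 (0.35, a fall in both genotypes), for BLVRA (0.36, a fall in wild type alone) and for FTL (0.32, a rise in both), with adjusted p of 1.18e-05, 1.06e-05 and 1.34e-07. It was lower in knockout cells for TFRC (-0.16, a fall in both, adjusted p = 0.0266). In cadmium it was higher in knockout cells for FTH1 (0.23, a rise in both, adjusted p = 0.0179), FTL (0.23, a rise in both, adjusted p = 4.33e-05) and SLC40A1 (0.86, a fall in both, adjusted p = 0.00761). It was lower in knockout cells for TFRC (-0.35, a fall in both, adjusted p = 4.41e-06). Among all genes, 24.6% differed in the zinc response and 28.1% in the cadmium response. The differences of HMOX2, BLVRA and FTL, and that of TFRC in cadmium, kept their call under all 19 alternatives run, while the call of TFRC in zinc was lost under 5 of them, that of FTH1 in cadmium under 6 and that of SLC40A1 in cadmium under 2. No group has 4 or more libraries, so single outlying libraries were not tested.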

How the results depend on the processing

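Of 110 member results, 84 were called. Over 770 values from 7 alternatives, 730 kept direction and side of the threshold, 12 lost and 14 gained a call, and 14 changed sign, none of them called in the main test. Leaving out libraries kept 730 of 780. BLVRA for zinc in knockout was -0.00076 with DESeq2, -0.00093 with its size factors, -0.086 with library size alone and -0.0088 with no filter. BLVRB between genotypes in water was 0.012, 0.012 and 0.051 under the first 3 of these and 0.024 with only the groups compared, and with library size alone it was -0.0033 for cadmium in knockout and -0.025 for zinc in wild type. TFRC between genotypes in water was 0.031 with library size alone and 0.0048 with only the groups compared, which gave the FECH cadmium difference -0.016. FTH1 for cadmium against zinc in knockout was -0.018 on the strand with most reads. Leaving out libraries gave -0.012 to 0.013 for BLVRA and zinc in knockout, -0.036 to 0.12 for BLVRB and zinc in wild type, and -0.072 to 0.052 for TFRC and cadmium against zinc in wild type. Between genotypes in water it gave -0.028 to 0.022 for BLVRB and -0.045 to 0.0060 for TFRC. Differences of the zinc response ran from -0.11 to 0.069 for FTH1, -0.072 to 0.14 for SLC40A1 and -0.043 to 0.0082 for FECH, whose cadmium difference ran from -0.0069 to 0.039. The number of members called for the cadmium difference ran from 2, without replicate 2 of cadmium-treated wild type, to 4. The cause was not tested. With the replicate block, HMOX1's zinc difference was called (-0.58, edgeR adjusted p = 0.0324), and it changed no other member call. The cadmium difference over all genes was 39.7% higher among called genes with only the groups compared, and 49.9% in the main test. HMOX1's water difference was called with no filter (-0.33, edgeR adjusted p = 1.70e-04) and with only the groups compared (-0.29, edgeR adjusted p = 0.00880), and the SLC40A1 values in cadmium-treated wild type rest on 14 to 50 reads.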
